A study of Mus musculus with 15 samples.

Results

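The change of the mouse kidney over its first postnatal week was measured by comparing 5 arrays of kidney RNA from postnatal day 7 (PN7d) with 5 from postnatal day 1 (PN1d). These are 10 of the 15 Illumina MouseRef-8 bead arrays of the series, chosen by the age in their labels. The other 5, from embryonic day 16 (E16d), entered only the shared estimate of variance and the filter on dim probes. All samples were total RNA of kidney from Balb/c mice with no treatment. The methods speak of male mice, but the Y-linked gene Kdm5d stood above the floor on only 2 of the 5 arrays of each age (values below). Whether a sample was 1 animal or a pool is stated neither in the labels nor in the methods, and the p-values reflect only how far these samples scatter. Because whole kidney RNA was hybridized, fewer cells of a type and less RNA per cell cannot be told apart.

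A mouse pup is born while its kidney is still making nephrons. In the outer cortex, a cap of mesenchymal progenitors signals to the branching tips of the ureteric bud, and tip signals in turn induce the cap cells to form the epithelial vesicles that become nephrons. This exchange ends in the first days of life, when the remaining progenitors differentiate. The nephrons already formed lengthen and take up the transport work of the proximal tubule, the loop of Henle, the distal tubule and the collecting duct, while the pup lives on milk, which is rich in fat.

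The authors deposited quantile-normalized intensities on a log2 scale. Probes entered the fit if any age had a mean above 6.22 log2, the median of all values (an intensity of 74.5), and the brightest probe stood for its gene. Of the 9531 genes tested with limma, 2301 were higher at PN7d (24.1%) and 2022 lower (21.2%) at a Benjamini-Hochberg adjusted p under 0.05, or 45.4% in either direction. The median difference over all genes was 0.01 log2, that of the higher genes 0.33 and that of the lower genes -0.32. The call thus took in many small differences: 395 genes (4.14%) were higher and 355 (3.72%) lower by more than 1.5-fold, and of those past the test 85 were higher and 94 lower by more than 2-fold. In 1372 genes (14.4%) all 5 PN7d arrays lay above all 5 PN1d arrays, and in 1278 (13.4%) all lay below. The median SD between arrays was 0.0993 log2 at PN1d and 0.122 at PN7d. Differences below are PN7d minus PN1d in log2 with their standard errors, array values are listed in the order of replicates 1 to 5, and adjusted p-values are limma's. Gene lists were compared with these background shares and this median, with no test of the list as a whole.

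**Figure D1:**
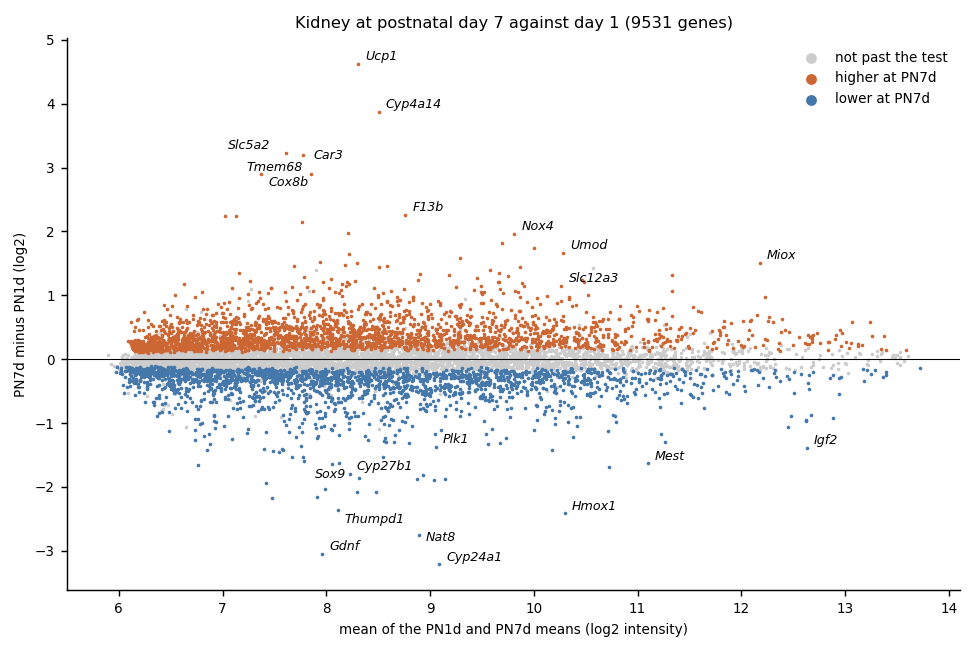
Difference between the ages (PN7d minus PN1d, log2, vertical axis) against the mean of the PN1d and PN7d means (log2 intensity, horizontal axis) for the 9531 genes, coloured by the limma call. Named points include Gdnf at -3.05 and Cyp24a1 at -3.22 at the bottom and Cyp4a14 at 3.87 near the top.

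The kidney markers Slc34a1, Umod, Slc12a3 and Aqp2 lay above the median of all values on all 10 arrays, but several arrays differed from the others of their age. Fat markers separated the PN7d arrays: Ucp1, the uncoupling protein of brown fat, read 12.17, 8.07, 10.07, 11.71 and 11.07 log2 at PN7d, against 5.88 to 6.08 at PN1d. Cidea, Cox8b and Adipoq moved with it and were lowest on PN7d replicate 2 and highest on replicate 1. Of 12 adipocyte genes tested 9 rose and 0 fell, against 24.1% and 21.2% of all genes. Ucp1, Cidea, Cox8b and Adipoq, under the median of all values at PN1d, met the filter through their PN7d means, which in part fixed that count. Another 5 listed genes lay below the filter. The summed intensity of the 12 was 2925 to 3425 at PN1d and 4021 to 11600 at PN7d. Messages typical of liver stood out on PN1d replicate 2, where Apoa1 read 10.41 against 7.56 to 8.48 on the other PN1d arrays and Afp 11.16 against 9.33 to 9.67. Of the defining liver genes, Alb and Fgb read under that median on all 10 arrays. Kdm5d, which lies on the Y chromosome, read 7.64, 5.79, 7.95, 5.86 and 5.84 at PN1d and 7.44, 5.76, 7.64, 5.79 and 5.77 at PN7d. It was thus above the median on replicates 1 and 3 of each age and below it on the other 6 arrays, while a probe of the X-linked Kdm6a read lower on those 4 arrays (8.82 to 9.27) than on the other 6 (9.47 to 9.88). Dimmer probes of the Y-linked Eif2s3y and Uty were also highest on those 4 arrays. For the other 6 arrays these values are at odds with the male mice of the methods, and the labels give no sex. With the Kdm5d level as a covariate, added after these values were seen, 2250 genes were higher and 1982 lower. The part of fat, liver or sex in the results below was not tested beyond the values given beside them.

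**Figure D2:**
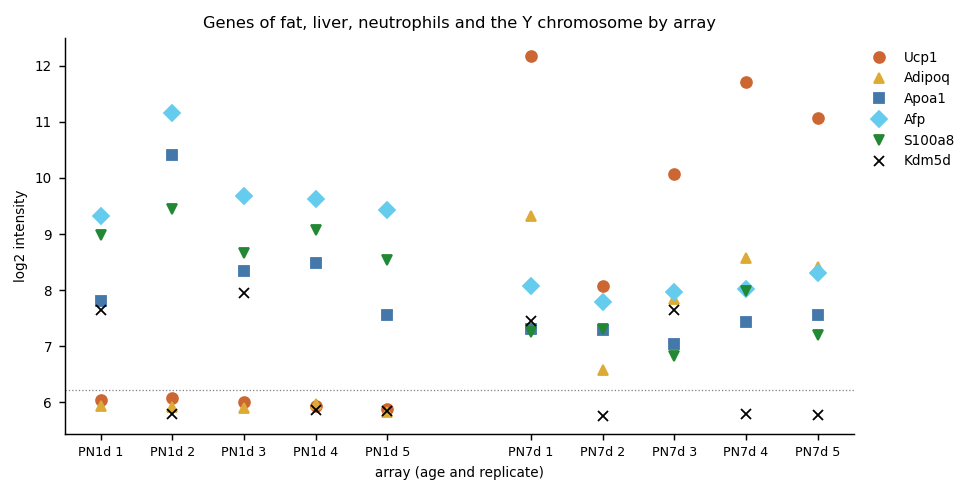
Log2 intensity (vertical axis) of fat, liver, neutrophil and Y-linked genes on each of the 10 arrays (horizontal axis). The dotted line is the median of all values, 6.22. Ucp1 and Adipoq vary among the PN7d arrays, Apoa1 and Afp stand high on PN1d replicate 2, and Kdm5d is above the line on replicates 1 and 3 of each age.

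Genes of the nephron-forming zone fell over the week. Of 15 tested genes of nephron progenitors and cap mesenchyme, 10 were lower and 1 higher (median -0.38), of 10 genes of the ureteric tip 7 were lower and 0 higher (median -0.52), and of 19 regulators of nephron induction and segment patterning 14 were lower and 1 higher (median -0.42). The share of lower genes among all genes was 21.2%. Gdnf, the growth factor by which the cap mesenchyme drives branching of the ureteric bud, showed the largest of these changes. It read 9.62, 9.50, 9.44, 9.49 and 9.38 log2 at PN1d and 6.45, 6.27, 6.48, 6.57 and 6.42 at PN7d. All PN7d arrays were thus close to the median of all values and the ages did not overlap. The difference was -3.05 ± 0.062 (adjusted p = 4.75e-15), an 8.28-fold fall. Gfra1, the co-receptor for GDNF on the bud, read 8.70 to 9.02 at PN1d and 7.24, 7.31, 7.23, 7.19 and 7.17 at PN7d, and fell by 1.64 ± 0.065 (adjusted p = 3.08e-11). The receptor tyrosine kinase Ret itself did not pass the filter. Etv4 and Etv5, transcription factors that act downstream of Ret, differed by -1.18 and -0.55, and Dusp6, a phosphatase induced by the same kinase cascade, by -0.50. Sox9, a transcription factor of the branching tip, read 9.65, 9.46, 8.79, 8.98 and 9.35 at PN1d and 7.75, 7.16, 7.28, 7.38 and 7.32 at PN7d, without overlap, and fell by 1.87 ± 0.19 (adjusted p = 1.1e-06).

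Among the cap mesenchyme genes the homeobox gene Uncx read 8.60, 8.47, 8.79, 8.53 and 8.52 at PN1d and 6.95, 7.02, 6.92, 7.00 and 7.03 at PN7d, and fell by 1.60 ± 0.057 (adjusted p = 1.27e-11). Cited1, which marks the least committed progenitors, read under 6.22 on all PN7d arrays and was lower by at least 1.46-fold. Osr1 (-0.32) and Sall1 (-0.34), transcription factors needed to keep the progenitors, were lower as well. Itga8, the integrin that nephron mesenchyme uses to sustain GDNF, differed by -0.20 and did not pass the test (adjusted p = 0.44). Six2, the standard marker of these cells, had no probe under the symbols searched, and Pax2 and Eya1 lay below the filter. Of the induction signals, Fgf8, also under 6.22 on all PN7d arrays, was lower by at least 1.5-fold and Wnt4 was lower (-0.47), as was Lhx1 (-0.94), which the newly formed vesicle needs. Hey1, a target of Notch signalling, fell by 1.29 ± 0.054 (adjusted p = 6.91e-11), and the Notch ligand Dll1 differed by -0.34. Jag1, another Notch ligand, stayed within its error (0.08 ± 0.14), and the Notch target Hes1 was slightly higher (0.15 ± 0.044, adjusted p = 0.0116). Wnt9b, the inducing signal from the bud, differed by 0.09 (adjusted p = 0.475). 

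The stroma between the tubules lost regulators of the same period. Of its 10 tested regulators 6 were lower and 2 higher, against 21.2% and 24.1% of all genes. Foxd1, which marks the cortical stromal progenitors, differed by -0.48, and the retinoic acid genes Aldh1a2, which makes the hormone, and Rarb, a receptor for it, by -0.66 and -0.38. Cyp26b1, an enzyme that degrades retinoic acid, was among the 15 largest decreases of the comparison. It read 9.27, 9.83, 9.77, 9.27 and 9.48 at PN1d and 7.41, 7.37, 7.28, 7.71 and 7.43 at PN7d, and fell by 2.08 ± 0.14 (adjusted p = 1e-08). Sfrp1, a secreted inhibitor of Wnt signalling, went the other way and rose by 0.83 ± 0.077 (adjusted p = 3.97e-07). Also among the largest decreases were Reln (-2.08), which encodes the secreted protein reelin, Nts (-2.04), which encodes the peptide neurotensin, and Capn6 (-1.89), a calpain without protease activity. In each of these genes the arrays of the ages did not overlap.

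Fetal growth genes fell with the nephron-forming program. Of 14 tested genes of this list, many of them imprinted, 12 were lower and 0 higher (median -0.46), against 21.2% and 24.1% of all genes. Igf2, the fetal insulin-like growth factor, was among the brightest probes of the arrays at 13.35, 13.29, 13.45, 13.23 and 13.32 log2 at PN1d, and read 11.99, 11.68, 11.69, 12.32 and 12.00 at PN7d. The spread at each age was far smaller than the step between them, and Igf2 fell by 1.39 ± 0.095 (adjusted p = 1.32e-08). Mest, also an imprinted gene expressed from the paternal copy, read 12.09, 11.97, 11.83, 11.79 and 11.88 at PN1d and 10.34, 10.40, 10.12, 10.26 and 10.30 at PN7d, and fell by 1.63 ± 0.064 (adjusted p = 3.08e-11). Another, dimmer probe of Mest fell by 0.60. Igf2bp3 and Igf2bp1, RNA-binding proteins of fetal tissue that bind Igf2 mRNA, differed by -1.29 and -0.81, and Gpc3, a cell-surface proteoglycan that limits growth, by -0.42. Cdkn1c, which encodes an imprinted inhibitor of the cell cycle, did not pass the test (-0.08, adjusted p = 0.276).

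**Figure D3:**
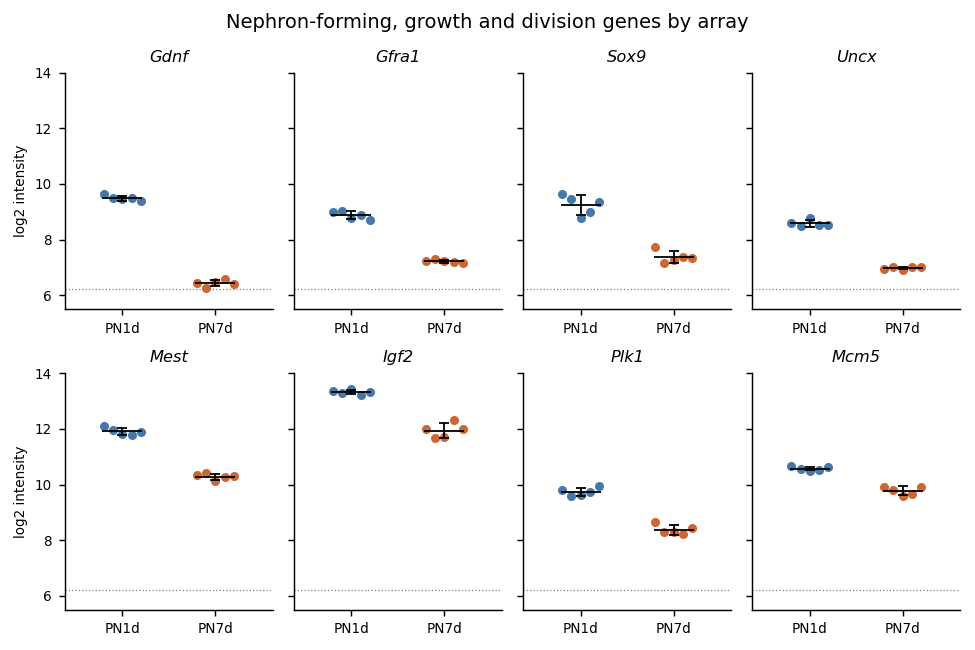
Log2 intensity (vertical axis) on each PN1d and PN7d array of 8 genes of the nephron-forming zone, fetal growth and cell division. Points are arrays, bars the mean with the SD over 5 arrays, and the dotted line the median of all values. In all 8 genes every PN7d array lies below every PN1d array, and Gdnf at PN7d lies close to the dotted line.

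Most cell division genes were lower at PN7d. Of 34 tested genes of mitosis and the cell cycle 30 were lower and 0 higher, with a median of -0.81. Of 36 genes of DNA replication 30 were lower and 0 higher, with a median of -0.40. Over all genes 21.2% were lower and 24.1% higher. In 31 of the 34 mitosis genes the PN7d arrays all lay below the PN1d arrays, against 13.4% of all genes. Plk1, the kinase that governs entry into and passage through mitosis, read 9.82, 9.58, 9.63, 9.73 and 9.95 at PN1d and 8.64, 8.29, 8.28, 8.21 and 8.43 at PN7d, and fell by 1.37 ± 0.084 (adjusted p = 4.29e-09). Cdca5, the sororin that keeps sister chromatids together, read 9.41, 9.28, 9.04, 9.08 and 9.15 at PN1d and 7.69 to 8.13 at PN7d. The arrays of the ages stood apart again, and Cdca5 fell by 1.28 ± 0.081 (adjusted p = 5.42e-09). Cenpa, a histone of the centromere (-1.21), Kif2c, a motor of the kinetochore (-1.22), and the kinases Aurka (-1.21) and Cdk1 (-1.17) were also lower. Falls were smaller in Bub1b, of the spindle checkpoint (-0.80), Ccna2, a cyclin (-0.49), and Foxm1, a transcription factor that activates mitotic genes (-0.33). Pttg1, Hmmr and the kinetochore genes Spc25 and Ttk did not pass the test. Signals did not vanish: the summed intensity of the 34 genes was 19220 to 21320 at PN1d and 9292 to 12410 at PN7d.

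Replication genes fell by less than mitotic genes at the median. Mcm5, a subunit of the replicative helicase, read 10.65, 10.57, 10.50, 10.51 and 10.62 at PN1d and 9.92, 9.82, 9.59, 9.65 and 9.91 at PN7d, and fell by 0.79 ± 0.067 (adjusted p = 1.53e-07). Pcna, the sliding clamp of the polymerases (-0.60), Rrm1 and Rrm2, which make deoxyribonucleotides (-0.62 and -0.60), and Uhrf1, a partner of the methyltransferase that keeps DNA methylation through replication (-0.57), were also lower. The largest fitted fall of the list, that of Mcm6, rested on 1 array. Mcm6 read 11.05, 11.10, 10.98, 11.00 and 10.29 at PN1d and 10.11, 10.03, 9.68, 6.50 and 11.02 at PN7d, where replicate 4 was far below the other 4 arrays and replicate 5 within the range of PN1d. Its difference was -1.42 ± 0.56 (adjusted p = 0.0479), and -0.67 (adjusted p = 0.0171) without PN7d replicate 4. The call was lost without any one of 5 other arrays (highest adjusted p 0.0848), and another Mcm6 probe differed by -0.36 (adjusted p = 0.0726).

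The promoters of these genes share short sequences, shown here because the members moved together. Promoter windows of 250 bases before to 50 after the transcription start came from RefSeq (GRCm38.p6). The motif TTTGAA, the core of the cell cycle genes homology region (CHR), read on both strands, was found in 24 of 29 promoters of 28 mitosis genes, against 17.9% of 32851 promoters of 27025 genes. The motif CCAAT, to which the factor NF-Y binds, was found in 20 of the 29, against 37.4% of all promoters. TTTCGCGC, a sequence of the E2F type, was found in 7 of 39 promoters of replication genes, in 1 of the 29 and in 0.323% of all. In replication promoters TTTGAA was found in 5 of 39 and CCAAT in 22 of 39. A match is a description of these letters in the window. The promoters of Plk1 (chr7:122159185-122159484, plus strand) and Cdk1 (chr10:69352863-69353162, minus strand) are printed with TTTGAA and CCAAT, on either strand, in capitals, and that of Mcm5 (chr8:75109259-75109558, plus strand) with TTTCGCGC in capitals.
Plk1: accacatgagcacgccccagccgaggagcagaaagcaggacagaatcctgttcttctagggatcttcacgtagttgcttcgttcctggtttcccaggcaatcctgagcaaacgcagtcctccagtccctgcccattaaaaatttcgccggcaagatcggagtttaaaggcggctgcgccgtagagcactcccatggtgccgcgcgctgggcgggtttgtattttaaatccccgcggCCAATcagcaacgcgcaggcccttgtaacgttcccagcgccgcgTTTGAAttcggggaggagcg
Cdk1: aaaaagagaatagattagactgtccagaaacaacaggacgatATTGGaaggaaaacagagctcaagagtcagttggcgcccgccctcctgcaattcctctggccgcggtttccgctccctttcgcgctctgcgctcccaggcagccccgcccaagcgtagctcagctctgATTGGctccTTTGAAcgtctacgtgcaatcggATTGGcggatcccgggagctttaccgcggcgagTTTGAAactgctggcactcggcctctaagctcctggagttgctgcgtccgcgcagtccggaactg
Mcm5: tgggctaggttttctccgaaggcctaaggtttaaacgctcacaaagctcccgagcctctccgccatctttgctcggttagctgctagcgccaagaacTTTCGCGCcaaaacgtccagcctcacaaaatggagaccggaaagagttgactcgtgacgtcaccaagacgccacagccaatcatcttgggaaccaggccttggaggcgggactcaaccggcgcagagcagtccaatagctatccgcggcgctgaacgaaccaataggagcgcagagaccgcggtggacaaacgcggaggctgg
In Plk1 the CCAAT box begins 14 bases before the start and TTTGAA at base 31 of the transcript. In Cdk1, which had 2 matches to TTTGAA, these begin 71 and 15 bases before the start. The TTTCGCGC of Mcm5 begins 153 bases before the start. Left in lower case are TTTCGCGC in the Cdk1 window and CCAAT in the Mcm5 window.

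RNA-processing and ribosomal genes also fell, by smaller amounts. Of 37 tested splicing genes 22 were lower and 0 higher (median -0.28), against 21.2% and 24.1% of all genes. The hnRNP genes Hnrnpa1 (-0.98), Hnrnpa2b1 (-1.31) and Hnrnpk (-0.89) fell the most on their brightest probes, although another probe of Hnrnpa2b1 differed by -0.44 (adjusted p = 0.0186). Snrpd1, a core protein of the spliceosome's small nuclear particles, was also lower (-0.65). Splicing factors of the SR family gave mixed readings. Srsf5 differed by 0.27 on its brightest probe without passing the test and by -1.12 on another probe (adjusted p = 4.68e-06), so the choice of probe decides its direction. Of 44 ribosomal protein genes 22 were lower and 1 higher (median -0.16), against the same shares, with Rps24 at -1.11 and Rpl13a at -1.04. The exception, Rpl23, was 0.14 on its brightest probe (adjusted p = 0.0453) and -0.33 over the mean of its probes, and the call was lost without any one of 6 arrays (highest adjusted p 0.118). Because these families have many processed pseudogenes, a probe may read more than 1 copy.

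An enzyme of vitamin D showed the largest fall of the comparison. Cyp24a1, which inactivates vitamin D hormone, read 10.63, 10.49, 10.87, 10.93 and 10.56 at PN1d and 7.51, 8.19, 7.85, 6.86 and 6.97 at PN7d. Every PN7d array lay below the PN1d arrays, and Cyp24a1 fell by 3.22 ± 0.2 (adjusted p = 4.28e-09), a 9.29-fold fall. Cyp27b1, which makes the hormone, read 9.05, 9.57, 9.63, 9.48 and 7.88 at PN1d and 6.93, 7.12, 7.38, 7.65 and 7.56 at PN7d. Its PN1d replicate 5 lay close to the PN7d arrays, and Cyp27b1 fell by 1.79 ± 0.25 (adjusted p = 2.87e-05). Vdr, the receptor of the vitamin D hormone (0.84), Pth1r, the receptor of parathyroid hormone (0.98), and Kl, the co-receptor of FGF23 (0.60), were higher, as was Casr, the calcium sensor, by at least 1.18-fold. Of the calcium-handling genes that answer to vitamin D hormone, Trpv6 was slightly higher (0.18, adjusted p = 0.0135) and S100g did not pass the test (0.22, adjusted p = 0.162). The phosphate transporters Slc34a3 (1.05) and Slc34a1 (0.59) were higher as well. Of 12 genes tested in this list 7 rose and 3 fell, against 24.1% and 21.2% of all genes.

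Other genes with high levels on the first day fell steeply. Hmox1, the heme oxygenase that breaks down heme, read 12.07, 11.02, 11.81, 11.17 and 11.46 at PN1d and 8.89, 9.39, 9.03, 9.02 and 9.12 at PN7d, and fell by 2.42 ± 0.16 (adjusted p = 9.79e-09). Nat8, an acetyltransferase that completes mercapturic acids, read 9.93 to 10.54 at PN1d and 7.55, 7.45, 8.27, 6.71 and 7.58 at PN7d, and fell by 2.76 ± 0.21 (adjusted p = 5.49e-08). Hsd17b2, which inactivates estradiol and testosterone (-1.94), and Slc22a22, a prostaglandin transporter of mouse kidney (-1.87), were also among the 15 largest decreases. The fall of Thumpd1, an adaptor for RNA acetylation, was uneven. It read 9.25, 9.42, 9.31, 9.29 and 9.19 at PN1d and 6.06, 6.18, 6.04, 8.27 and 8.09 at PN7d, so that 3 of the PN7d arrays were no higher than 6.22 and the other 2 between them and PN1d. Fkbp5, a chaperone induced by glucocorticoids, fell by 1.06 ± 0.11 (adjusted p = 1.78e-06), while the metallothioneins Mt1 (0.36) and Mt2 (0.83), also induced by them, were higher. Of 12 glucocorticoid-responsive genes 3 rose and 3 fell, against 24.1% and 21.2% of all genes. Egr1, an immediate early gene, fell by 1.09 ± 0.1 (adjusted p = 5.08e-07). Of 16 immediate early genes tested 7 were lower and 2 higher, against the same 21.2% and 24.1%. Fos read 6.96, 8.77, 7.02, 6.90 and 7.75 at PN1d and 6.78, 6.71, 6.65, 6.96 and 6.89 at PN7d, with PN1d replicate 2 the highest, and its call (adjusted p = 0.0436) was lost without any one of 7 arrays, that replicate among them (highest adjusted p 0.09).

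Transport genes of the loop of Henle, the distal convoluted tubule and the intercalated cells rose. Of 20 tested genes of the thick ascending limb and distal convoluted tubule 16 were higher and 0 lower, with a median of 0.60, against 24.1% higher and a median of 0.01 over all genes. Umod, which encodes uromodulin, the main protein of normal urine, read 9.39, 9.33, 9.43, 9.34 and 9.74 at PN1d and 11.12, 11.28, 11.17, 10.58 and 11.42 at PN7d, and rose by 1.67 ± 0.13 (adjusted p = 3.98e-08). Kcnj1, the potassium channel ROMK, read 9.03, 8.08, 8.35, 8.58 and 8.45 at PN1d and 9.81, 10.10, 10.09, 10.06 and 10.36 at PN7d, and rose by 1.59 ± 0.15 (adjusted p = 6.21e-07). Slc12a3, the thiazide-sensitive salt transporter of the distal convoluted tubule, read 9.58, 9.75, 9.54, 9.74 and 9.84 at PN1d and 10.66, 10.51, 11.30, 11.10 and 10.62 at PN7d, and rose by 1.15 ± 0.13 (adjusted p = 3.59e-06). In all 3 genes every PN7d array lay above every PN1d array. The furosemide-sensitive transporter of the thick limb, Slc12a1, rose by 0.61, and Bsnd, the subunit of its chloride channels, by 0.94. Egf, made in the same segments (1.46), Pvalb of the early distal convoluted tubule (1.31), Kcnj16 (1.20) and Cldn19, a claudin of the magnesium pathway (0.92), were also higher. Stk39, a kinase that activates both salt transporters, differed by -0.15 and did not pass the test (adjusted p = 0.1).

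Intercalated cells secrete acid or base in the collecting duct. Their list had the highest share of rising genes of any tubule list, 11 of 12 against 24.1% of all genes, with a median of 0.83. Aqp6 and Atp6v1g3 had PN1d means under 6.22 (6.19 and 6.03) and met the filter at PN7d (6.71 and 6.25). The filter may thus have added to this share, and another 4 listed genes lay below it. Slc26a4, the chloride-bicarbonate exchanger pendrin of base-secreting cells, read 7.51, 7.42, 7.40, 7.27 and 7.45 at PN1d and 8.75, 8.80, 8.66, 8.42 and 8.71 at PN7d, and rose by 1.26 ± 0.069 (adjusted p = 1.18e-09). Slc4a9 (1.06), also of base-secreting cells, was higher too. The ammonia transporters Rhbg (1.21) and Rhcg (1.14) and the proton pump subunit Atp6v1b1 (1.02) rose as well. Foxi1, the transcription factor that specifies these cells, was higher by 0.34. Slc4a1, shared with red cells, read 7.72, 9.55, 8.12, 7.87 and 7.71 at PN1d and 9.48, 9.19, 9.16, 9.07 and 9.58 at PN7d, with the high PN1d value on the replicate that was also high in liver genes. Car2, the cytosolic carbonic anhydrase, did not pass the test (0.04, adjusted p = 0.723).

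Principal cells reabsorb sodium and water in the collecting duct. Of 15 genes tested 7 were higher and 3 lower, against 24.1% and 21.2% of all genes. The share of lower genes was close to that of all genes. The sodium channel subunits Scnn1b (0.93) and Scnn1g (0.58) and Hsd11b2, which shields the aldosterone receptor from glucocorticoids (1.48), were higher, and Scnn1a did not pass the test (0.08, adjusted p = 0.471). Aqp2, the water channel under control of vasopressin, read 10.62, 11.02, 10.33, 10.17 and 10.51 at PN1d and 9.52, 10.15, 9.83, 9.20 and 9.65 at PN7d, and fell by 0.86 ± 0.16 (adjusted p = 0.000399). The call was lost with the fat level as a covariate (-0.51, adjusted p = 0.0698) and with the liver level (-0.59, adjusted p = 0.0987). Aqp3 and Aqp4, the water channels of the other face of the cell, differed by 0.10 and 0.17 without passing the test, and the vasopressin receptor Avpr2 was 0.17 (adjusted p = 0.0312), a call lost without PN1d replicate 2 or 4 or PN7d replicate 5 (highest adjusted p 0.0907). Slc14a2, the urea transporter, rose by 1.33 on its brighter probe, while a dimmer probe differed by -0.10 (adjusted p = 0.135).

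**Figure D4:**
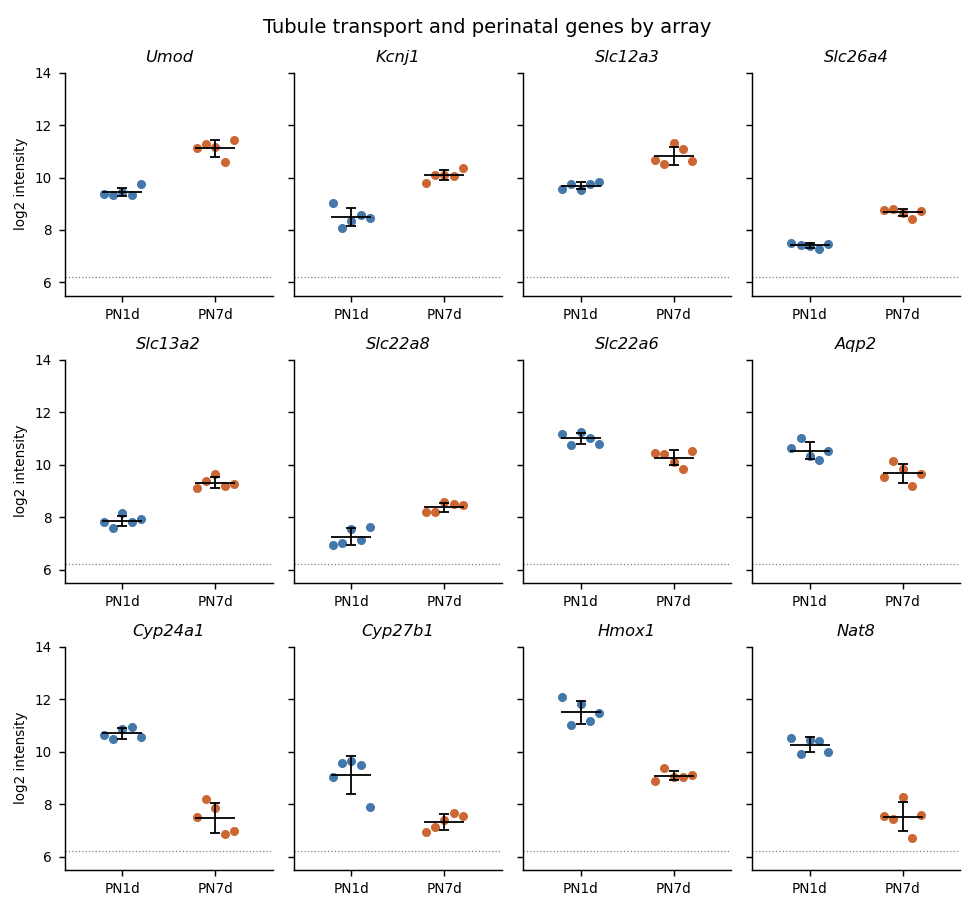
Log2 intensity (vertical axis) on each PN1d and PN7d array of 12 genes of tubule transport and of the first day of life. Points are arrays, bars the mean with the SD over 5 arrays, and the dotted line the median of all values. Umod, Kcnj1, Slc12a3, Slc26a4, Slc13a2 and Slc22a8 rose, and Slc22a6, Aqp2, Cyp24a1, Cyp27b1, Hmox1 and Nat8 fell, in each case without overlap of the arrays.

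Of 40 transporters of the proximal tubule tested 19 were higher, 8 lower and 13 did not pass the test (median 0.30). Over all genes 24.1% were higher and 21.2% lower, so the share of lower transporters was close to that of all genes. Slc5a2, the glucose transporter SGLT2 of the early proximal tubule, had the largest rise. It read 5.99, 6.06, 5.91, 5.94 and 6.04 at PN1d, all below the median of all values, and 9.65, 10.17, 9.96, 6.42 and 9.93 at PN7d, where replicate 4 was far below the other 4. The rise was at least 8.04-fold (adjusted p = 7.31e-05). Without PN7d replicate 4 the fitted difference was 3.94 in place of 3.24, and another probe of the gene read 6.72, 6.64, 6.56, 6.51 and 6.85 at PN1d and 7.48, 7.83, 8.09, 7.41 and 7.79 at PN7d (difference 1.06, adjusted p = 6.49e-07). On that probe replicate 4 was again the lowest PN7d array, but close to replicate 1 (7.41 against 7.48). Slc13a2, which takes up citrate, read 7.81, 7.59, 8.14, 7.83 and 7.92 at PN1d and 9.09, 9.39, 9.63, 9.18 and 9.26 at PN7d, and rose by 1.45 ± 0.099 (adjusted p = 1.31e-08). Slc13a3, another dicarboxylate transporter (1.22), the amino acid transporters Slc7a8 and Slc7a9 (1.04 and 1.01) and the lactate transporter Slc5a12 (1.01) also rose. The amino acid transporters Slc7a12 (-1.10) and Slc7a7 (-0.56) were lower, as were Slc17a3, a urate and organic anion transporter (-0.97), and Slc22a19, an organic anion transporter (-1.09).

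The basolateral organic anion transporters Slc22a6 (OAT1) and Slc22a8 (OAT3), neighbours on chromosome 19, moved in opposite directions. Slc22a6 read 11.18, 10.76, 11.25, 11.01 and 10.78 at PN1d and 10.43, 10.41, 10.10, 9.83 and 10.51 at PN7d, and fell by 0.74 ± 0.12 (adjusted p = 0.000165). Slc22a8 read 6.92, 7.01, 7.55, 7.12 and 7.63 at PN1d and 8.20, 8.18, 8.56, 8.50 and 8.45 at PN7d, and rose by 1.13 ± 0.12 (adjusted p = 1.78e-06). Both promoters hold GTTAAT, a half-site of hepatocyte nuclear factor 1, a regulator of proximal tubule genes. This motif, on either strand, was found in 8 of 48 promoters of 34 transporter genes, against 7.1% of all promoters. The windows of Slc22a6 (chr19:8617746-8618045, plus strand), Slc22a8 (chr19:8592932-8593231, plus strand) and the phosphate transporter Slc34a1 (chr13:55399398-55399697, plus strand) are printed because the motif stands in genes that fell and in genes that rose, with GTTAAT or its reverse complement in capitals.
Slc22a6: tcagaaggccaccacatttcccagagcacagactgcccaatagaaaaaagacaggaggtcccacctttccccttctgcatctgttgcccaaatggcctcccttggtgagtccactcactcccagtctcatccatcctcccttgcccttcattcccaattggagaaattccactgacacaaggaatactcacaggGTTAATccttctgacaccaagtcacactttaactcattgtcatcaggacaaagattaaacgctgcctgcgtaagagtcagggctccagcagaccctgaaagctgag
Slc22a8: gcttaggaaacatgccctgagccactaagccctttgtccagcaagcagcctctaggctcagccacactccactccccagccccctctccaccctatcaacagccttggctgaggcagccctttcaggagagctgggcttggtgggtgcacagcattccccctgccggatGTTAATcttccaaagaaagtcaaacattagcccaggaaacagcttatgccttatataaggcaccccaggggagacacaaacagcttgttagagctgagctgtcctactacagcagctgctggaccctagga
Slc34a1: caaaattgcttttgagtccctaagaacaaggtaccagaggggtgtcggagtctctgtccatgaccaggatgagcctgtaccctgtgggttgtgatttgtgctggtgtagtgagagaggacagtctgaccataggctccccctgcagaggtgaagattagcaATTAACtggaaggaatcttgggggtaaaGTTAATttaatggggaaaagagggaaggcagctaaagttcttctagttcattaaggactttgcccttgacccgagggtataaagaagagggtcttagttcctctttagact
The match begins 56 bases before the start in Slc22a6 and 81 bases before it in Slc22a8. In Slc34a1 the matches begin 89 and 61 bases before the start. Slc34a1 was bright at both ages, at 12.91, 12.72, 13.04, 13.03 and 13.01 at PN1d and 13.60, 13.49, 13.49, 13.49 and 13.60 at PN7d, and rose by 0.59 ± 0.079 (adjusted p = 1.86e-05).

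Of 23 genes of the brush border and of endocytosis, 11 rose and 2 fell (median 0.21), against 24.1% and 21.2% of all genes. Higher genes included the microvillus adhesion proteins Tmigd1 (0.86) and Cdhr5 (0.62), Ace, which makes angiotensin II (0.80), and Dab2, the adaptor of megalin (0.46). Treh, which splits trehalose, was 2.14-fold lower (adjusted p = 1.84e-07). Anpep, the aminopeptidase N of the brush border, read 10.75, 10.51, 10.49, 10.21 and 9.53 at PN1d and 9.54, 9.50, 9.73, 9.23 and 9.66 at PN7d. Its ages overlapped at PN1d replicate 5, and its call (difference -0.76, adjusted p = 0.00313) was lost with the fat level as a covariate (adjusted p = 0.0673) and with the liver level (adjusted p = 0.182). Lrp2 and Cubn, the endocytic receptors themselves, had no probe under the symbols searched. In the renin-angiotensin list 3 of 6 genes were higher and 1 lower, against the same shares. The higher genes included the receptors Agtr1a (0.44) and Agtr1b (0.52), and Atp6ap2 was lower (-0.40).

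Of 15 podocyte and glomerular basement membrane genes 9 were higher and 2 lower, against 24.1% and 21.2% of all genes. Col4a3 and Col4a4, collagen IV chains that replace the fetal chains in the capillary wall, were the highest, at 0.96 and 1.20, followed by the laminin chain Lama5 (0.63). Col4a4 read 8.83, 8.89, 9.26, 9.17 and 9.13 at PN1d and 10.03, 10.12, 10.38, 10.16 and 10.60 at PN7d, and rose by 1.20 ± 0.1 (adjusted p = 1.32e-07). Lamb2 (0.37), which takes the place of its fetal homologue in the same membrane, Nphs1, the nephrin of the slit diaphragm (0.33), and Ptpro, a podocyte phosphatase (0.48), were higher by less. Wt1, a transcription factor of both nephron progenitors and podocytes, fell by 0.47 ± 0.085 (adjusted p = 0.000291). Of 24 endothelial genes 8 were higher and 1 lower, against the same shares. Ehd3, found in glomerular endothelium, was at 0.78, and the lipoprotein lipase anchor Gpihbp1 at 0.67.

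Of 29 matrix genes tested 12 were higher and 6 lower, against 24.1% and 21.2% of all genes. The share of lower genes was thus close to that of all genes. The small proteoglycans of mature interstitium, Lum (1.04) and Dcn (0.75), and the fibulin Fbln2 (0.78) were higher. Lum read 7.26, 7.43, 7.78, 7.55 and 8.01 at PN1d and 8.82, 8.59, 8.40, 8.79 and 8.63 at PN7d. Prelp, a proteoglycan of the same family that was in no list, was among the 15 largest increases (1.98). Lox, the enzyme that crosslinks collagen, read 10.68, 11.10, 10.90, 10.93 and 10.86 at PN1d and 9.98, 9.93, 9.92, 10.02 and 10.13 at PN7d, and fell by 0.90 ± 0.068 (adjusted p = 4.06e-08). Fbn2, the fetal fibrillin, was also lower (-0.43). The interstitial collagens Col1a1 (-0.12), Col1a2 (-0.03) and Col3a1 (0.13) did not pass the test.

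**Figure D5:**
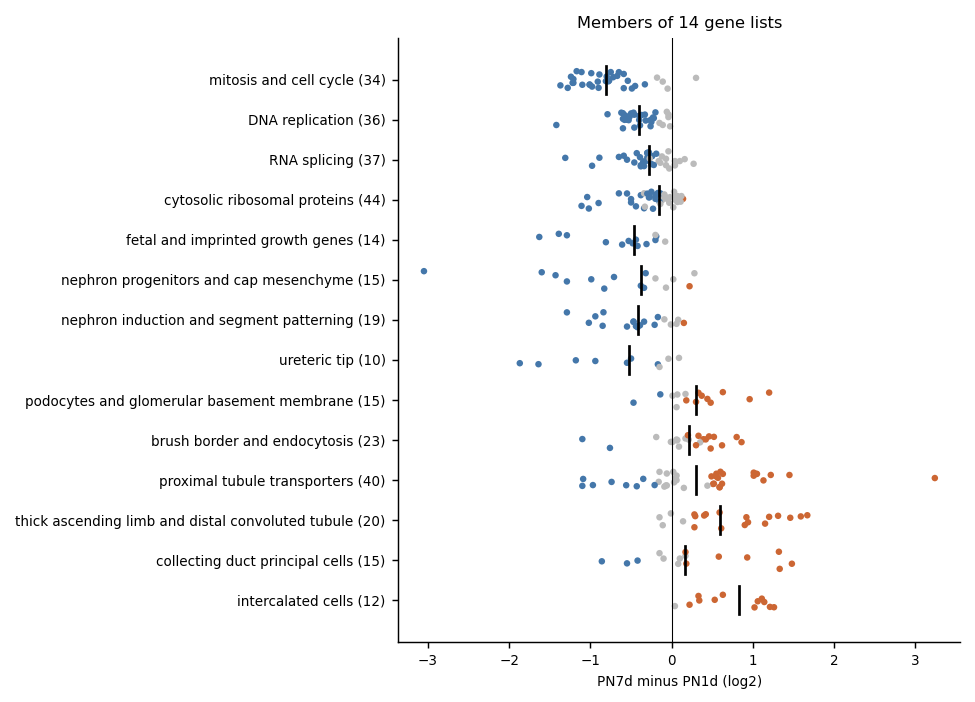
Difference between the ages (PN7d minus PN1d, log2, horizontal axis) of each tested member of 14 gene lists (vertical axis, number of members in parentheses). Points are genes, orange where higher, blue where lower and grey where not past the test, and the black bar is the list median, which runs from -0.81 for mitosis and cell cycle to 0.83 for intercalated cells.

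Metabolic genes moved in directions that differed between pathways. Cyp4a14, a fatty acid omega-hydroxylase induced through PPAR-alpha, was next to Ucp1 among the 15 largest increases. It read 6.12, 7.00, 6.92, 6.15 and 6.64 at PN1d and 10.08, 10.58, 10.96, 10.04 and 10.53 at PN7d, and rose by 3.87 ± 0.18 (adjusted p = 1.82e-10). Its relative Cyp4a10 was 0.97 (1.87 on another probe) and Cyp4a12a 0.07 (adjusted p = 0.54), and probes of this closely related family may share signal. Of 34 genes of fatty acid oxidation and ketogenesis 17 were higher and 5 lower, against 24.1% and 21.2% of all genes. Peroxisomal enzymes were among the increases, with Acaa1b (1.24), Ech1 (1.06) and Ehhadh (0.78). Acox2, also peroxisomal, was lower (-0.48, adjusted p = 0.00154), as was Acadm (-0.51, and -1.21 on another probe). Hadhb, counted as higher (0.17), differed by -0.50 on another probe (adjusted p = 0.00512). Of the enzymes that use ketone bodies, Bdh1, which interconverts them (-0.94), and Oxct1, which activates acetoacetate (-0.54), were lower and Acat1, the thiolase of the last step, was higher (0.25, adjusted p = 0.0202), a call lost without PN1d replicate 2 or PN7d replicate 1 or 5 (highest adjusted p 0.057). Hao2, a peroxisomal oxidase of hydroxy acids, was lower too (-0.88).

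Miox, which breaks down inositol in the proximal tubule, read 11.38, 10.76, 11.54, 11.36 and 12.05 at PN1d and 12.90, 12.97, 12.96, 12.77 and 13.05 at PN7d, and rose by 1.51 ± 0.17 (adjusted p = 3.32e-06). Khk, the kinase of fructose (1.45), and Pck1, the committed enzyme of gluconeogenesis (2.14-fold), also rose. Of 12 genes of gluconeogenesis, fructose and inositol 6 were higher and 0 lower, against 24.1% and 21.2% of all genes. Fbp1 and G6pc, later steps of gluconeogenesis, did not pass the test (0.08 and 0.16). Of 23 genes of hypoxia and glycolysis 10 fell and 3 rose, against 21.2% and 24.1% of all genes. Pfkl (-0.61), Pkm (-0.59), Ldha (-0.50) and Slc2a1 (-0.59) encode enzymes of glycolysis or lactate formation and the glucose transporter GLUT1. Hk2 was lower as well (-0.74), but its call was lost with the liver level as a covariate (-0.30, adjusted p = 0.22). The hypoxia-inducible gene Vegfa, the growth factor of capillaries, went the other way (0.69).

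Amino acid enzymes moved in both directions. Of 44 tested 17 were higher and 12 lower, against 24.1% and 21.2% of all genes. The lower genes included those that make serine, Phgdh (-0.54) and Psat1 (-0.79), and those that turn serine and glycine into folate-bound units in mitochondria, Shmt2 (-0.85) and Gldc. Gldc, the decarboxylase of the glycine cleavage system, read 7.54, 7.47, 7.45, 7.41 and 7.25 at PN1d and 6.22, 6.18, 6.35, 6.11 and 6.27 at PN7d, and fell by 1.20 ± 0.065 (adjusted p = 1.05e-09). Another probe of Psat1 differed by -0.12 (adjusted p = 0.364). The higher genes included Aass, which opens lysine breakdown (1.11), Prodh2, an oxidase of hydroxyproline (1.08), Pipox, of pipecolic acid breakdown (0.81), and Gatm and Gamt, which together make creatine (0.51 and 0.72). Nox4, the NADPH oxidase of kidney tubules, stood out among the redox genes. It read 8.98, 8.52, 8.83, 8.90 and 8.93 at PN1d and 10.53, 10.69, 11.00, 10.67 and 11.06 at PN7d, and rose by 1.96 ± 0.1 (adjusted p = 5.88e-10). Of 41 redox and xenobiotic genes 17 were higher and 10 lower, against the same 24.1% and 21.2%. Of 65 genes of the respiratory chain and TCA cycle 15 were higher, against 24.1% of all genes, and 2 lower. The median of that list was 0.06, and its differences ran from -0.45, in Sucla2 (adjusted p = 0.000343), to 0.32. Mgst1, a microsomal glutathione transferase, differed by -1.33, or by -0.66 without PN7d replicate 2 (adjusted p = 0.00862), and its call was lost without any one of the 5 PN1d arrays (highest adjusted p 0.0711). Of 18 cholesterol genes 5 rose and 3 fell, against 24.1% and 21.2% of all genes.

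Genes of immune cells moved in both directions. Of 25 tested genes of macrophages and antigen presentation 10 were higher and 2 lower. Cd74, the invariant chain of MHC class II, read 6.97, 6.81, 6.63, 6.66 and 6.59 at PN1d and 7.73, 7.85, 7.98, 7.67 and 7.58 at PN7d, and rose by 1.03 ± 0.082 (adjusted p = 7.68e-08). H2-Ab1 (0.70) and H2-Eb1 (0.60), class II chains, and B2m (0.36), of class I, were also higher, although another probe of H2-Ab1 differed by -0.09 (adjusted p = 0.837). The class II gene H2-DMb1 (0.27, adjusted p = 0.22) and the class I gene H2-K1 (-0.64, adjusted p = 0.173) did not pass the test on their brightest probes, while another probe of H2-DMb1 differed by 0.83 (adjusted p = 2.95e-05). Macrophage markers varied: Adgre1, the antigen F4/80, was higher (0.33), the complement gene C1qc lower (-0.33), and C1qa within its error (0.02, adjusted p = 0.805). Neutrophil granule genes were lower in 8 of 10 and higher in 0. S100a8, which encodes a subunit of calprotectin, read 8.98, 9.45, 8.67, 9.08 and 8.53 at PN1d and 7.25, 7.30, 6.82, 7.98 and 7.20 at PN7d, and fell by 1.63 ± 0.2 (adjusted p = 7.34e-06). Its partner S100a9 gave -1.53. Among interferon-responsive genes 4 of 13 were higher and 1 lower, with Irf1 at 0.60 and Bst2 at -0.78. Over all genes 24.1% were higher and 21.2% lower. The bright probe of Hba-a1, an alpha globin of red cells, differed by -0.03 (adjusted p = 0.732). Of 11 erythroid genes 3 rose and 0 fell, against the same shares.

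Of 13 circadian clock genes 8 were higher and 1 lower (median 0.34), against 24.1% and 21.2% of all genes. The hour of collection is stated nowhere in the labels or methods. Bhlhe40 (0.89), Per2 (0.75), Dbp (0.71) and Tef (0.61), all driven by the CLOCK and BMAL1 factors, rose. The lower gene was Usp2 (-0.43, adjusted p = 0.00441), whose other probes differed by -0.21 and -0.18. Per2 read 8.19, 8.70, 8.18, 8.50 and 8.54 at PN1d and 8.92, 8.97, 9.62, 9.42 and 8.94 at PN7d. Arntl, which encodes BMAL1, did not pass the test (0.11, adjusted p = 0.234). Per1, a target of the clock and of glucocorticoids, differed by 0.31 (adjusted p = 0.0648).

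The markers of other tissues gave these values. Among fat genes the rise was at least 21.1-fold for Ucp1, 6.07-fold for Cox8b, 4.09-fold for Cidea and 3.8-fold for Adipoq, each of which read under 6.22 on the 5 PN1d arrays. Car3, a carbonic anhydrase abundant in fat, read 6.18, 6.16, 6.36, 6.08 and 6.11 at PN1d and 10.90, 7.20, 8.76, 10.40 and 9.60 at PN7d and put the PN7d arrays in the same order as Ucp1 did. Without PN7d replicate 2 the fitted difference of Ucp1 was 5.27 in place of 4.63. Of 16 liver genes 7 were lower and 0 higher, against 21.2% and 24.1% of all genes. Their summed intensity was 2433 to 16860 at PN1d, highest on replicate 2, and 1987 to 2547 at PN7d. Without that replicate Trf, the transferrin gene, differed by -0.74 in place of -1.43, Ahsg by -0.65 in place of -1.25 and Fga by -0.58 in place of -1.18, with adjusted p-values of 0.0144, 0.0235 and 0.0365. Their calls were lost without any one of 5, 4 and 6 of the remaining arrays, with adjusted p-values up to 0.0722, 0.0747 and 0.0862. Ttr, which carries thyroid hormone, read 10.62, 11.09, 9.11, 11.27 and 8.31 at PN1d and 8.33, 8.20, 7.82, 8.31 and 8.38 at PN7d, and overlapped between the ages at PN1d replicate 5. Of the adrenal markers, Cyp11a1 and Dbh lay below the median on all 10 arrays, and Star did not pass the test (-0.11, adjusted p = 0.0555). In the adrenal list 2 of 4 tested genes were lower and 0 higher, against the same shares. Mc2r, close to the median of all values, differed by -0.33 (adjusted p = 0.000222). Scarb1 differed by -0.21 (adjusted p = 0.01), and by 0.13 on another probe (adjusted p = 0.0769). Skeletal muscle genes passed the test in 0 of 5, against 45.4% of all genes, with Acta1 between 6.23 and 8.87 at PN7d. With the fat level as a covariate 1589 genes were higher and 1392 lower, and with the liver level 1050 and 931. The slope on each level came from its spread within ages. Neither level overlapped between the 2 postnatal ages, so the adjusted differences rest on extending that slope from PN7d to PN1d levels. The fat level was 59.7 to 63.3 at PN1d and 155 to 1780 at PN7d.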

How the data were processed

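RNA of 15 mouse kidney samples was hybridized to Illumina MouseRef-8 arrays. The authors quantile-normalized the scanned intensities, and the deposited table gives log2 values from 5.56 to 13.80. The base is taken from the values: as natural logs the highest would be an intensity of 988860, above the 65535 of a 16-bit scanner, and as log2 it is 14306. A second table has 30 columns of signals and detection p-values whose names could not be tied to samples, and it was not used. Samples were grouped by the age in the labels. Of 24613 probes, 20984 have 1 symbol in the platform annotation, 1 has several and 3628 have none. The filter kept 13074 probes, of which 1488 lacked a symbol and were not tested, and 1680 genes had several probes. limma 3.58.1 in R 4.3.3 was fitted over 15 arrays with age as the factor (12 residual degrees of freedom), after a test on simulated data. The number of arrays limits the precision. Gene lists, 41 in number, and members were chosen with earlier results of these data known. Where no array of the dimmer age exceeded the median of all values, the fold is a lower bound, the mean of the brighter age over that median. A gene dim at either postnatal age can meet the filter through the other, so list counts may in part be set by the filter. Named genes are the 15 largest increases and decreases past the test with no overlap between ages and above the median on the brighter arrays, the 2 largest changes in each direction in each list, and tissue and sex markers; other genes are list members named for their role, chosen after their values were seen. Alternatives covered the filter, the probe choice, the variance model, array weights, a block, the methods' t-test, normexp (offset 16), fat and liver levels as covariates and leaving out each array. The fat level is a mean over Ucp1, Adipoq, Cidea and Cox8b in linear intensity, and the liver level a mean over Afp, Alb, Apoa1 and Fgb in log2. The Kdm5d level was added as a covariate after the data were seen. Promoter sequences are from RefSeq (GRCm38.p6).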

Additional observations from a re-analysis of the deposited data

Results flagged for a closer look

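Among the 143 named genes at both ages, 286 groups of 5 arrays, 13 groups held an array far from the other 4 on Dixon's gap test, and chance flags about 1 in 20 groups, here 14.3. No explanation was tested for any of them. Among arrays above the rest of their age, Umod read 9.74 on PN1d replicate 5 against 9.33 to 9.43 on the other 4 arrays of that age. Nts read 9.28 on PN1d replicate 1 against 8.92 to 8.97 on the other 4 arrays of that age. Afp read 11.16 on PN1d replicate 2 against 9.33 to 9.67 on the other 4 arrays of that age. Slc34a3 read 8.21 on PN7d replicate 5 against 8.10 to 8.12 on the other 4 arrays of that age. Usp2 read 9.45 on PN1d replicate 2 against 8.70 to 8.86 on the other 4 arrays of that age. C1qb read 7.06 on PN7d replicate 1 against 6.87 to 6.91 on the other 4 arrays of that age. Slc4a1 read 9.55 on PN1d replicate 2 against 7.71 to 8.12 on the other 4 arrays of that age. Among arrays below the rest, Slc5a2 read 6.42 on PN7d replicate 4 against 9.65 to 10.17 on the other 4 arrays of that age. Tmem68 read 8.70 on PN7d replicate 3 against 9.37 to 9.54 on the other 4 arrays of that age. Tor1aip2 read 8.02 on PN1d replicate 4 against 8.63 to 8.85 on the other 4 arrays of that age. Hsd17b2 read 7.91 on PN1d replicate 5 against 8.48 to 8.54 on the other 4 arrays of that age. Mcm6 read 10.29 on PN1d replicate 5 against 10.98 to 11.10 on the other 4 arrays of that age. Wt1 read 11.12 on PN1d replicate 3 against 11.24 to 11.27 on the other 4 arrays of that age. PN1d replicate 2 held 3 of the 7 high values, those of Afp, Usp2 and Slc4a1.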

How the results depend on the processing

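Counts of changed genes stayed within 1.5 times of 2301 higher and 2022 lower in all settings run but 2. With the filter at the upper quartile of all values (7.71 log2) 5471 genes were tested and 1436 were higher and 1387 lower, and with the liver level as a covariate 1050 were higher and 931 lower. The first tests fewer genes, and in the second the covariate itself did not overlap between the ages. The fat level did not overlap between the ages either. Leaving out each postnatal array in turn gave 2088 to 2324 higher and 1829 to 2013 lower genes. The methods' t-test called 2365 and 2150 unadjusted and 1872 and 1699 after Benjamini-Hochberg adjustment. Of the genes beyond 1.5-fold 386 higher and 342 lower also passed limma's test.

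With the replicate number as a block, 1896 genes were higher and 1751 lower. The deviations of arrays with the same number correlated at 0.199, 0.0679, 0.114, -0.0282 and -0.227 for numbers 1 to 5, so the numbers do not pair the samples. Of the 143 named genes 12 lost their call under the replicate block, 18 with the fat level and 31 with the liver level as a covariate.

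Of the 16 leading lists, these medians moved by more than the SD between arrays. At the upper quartile: nephron progenitors and cap mesenchyme -0.69, ureteric tip -1.06, extracellular matrix 0.25, mitosis and cell cycle -0.94, fetal and imprinted growth genes -0.61, proximal tubule transporters 0.49, thick ascending limb and distal convoluted tubule 0.75, intercalated cells 1.08, circadian clock 0.61, neutrophil granules -1.53, liver -1.25 and adipocytes 1.41. With normexp: nephron progenitors and cap mesenchyme -0.59, ureteric tip -0.65, mitosis and cell cycle -0.96, DNA replication -0.51, fetal and imprinted growth genes -0.66, intercalated cells 1.08, circadian clock 0.52 and neutrophil granules -0.62. With the liver level: nephron progenitors and cap mesenchyme -0.51, ureteric tip -0.38, mitosis and cell cycle -0.95, proximal tubule transporters 0.14, intercalated cells 0.75, circadian clock 0.44, neutrophil granules -0.12 and liver 0.85. With the fat level: nephron progenitors and cap mesenchyme -0.49, circadian clock 0.56 and adipocytes 0.22. With the mean of a gene's probes: ureteric tip -0.42. With the filter on the postnatal ages alone: nephron progenitors and cap mesenchyme -0.55. Leaving out single arrays, the median of nephron progenitors ran from -0.46 to -0.35, lowest without PN7d replicate 5. In all of these the sign was kept except that of liver, -0.60 as reported. Among the other 25 lists the median moved in 12 at the upper quartile, in 9 with the fat level, in 4 with the liver level, in 4 with normexp, in 1 with the mean of probes and in 1 each without PN7d replicate 1, 2 or 4. The cause was not tested. Directions reversed for Rpl23 with the mean of its probes (-0.33) and, with the liver level as a covariate, for Usp2 (0.02), Fos (0.30) and Apoa1 (0.53). Apoa1 is itself part of the liver level, so its value there is circular. The same holds for the liver median with the liver level and the adipocyte median with the fat level, since those lists share genes with the covariates.

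Fold changes of genes near the median of all values are understated, as far as the deposited values still hold background. The filter on detection p and the background correction of raw signals could not be run, since those columns could not be tied to samples.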

Other observations

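Some of the largest differences lay outside the lists. F13b, a subunit of clotting factor XIII, read 7.61, 7.96, 7.27, 7.47 and 7.83 log2 at PN1d and 9.61, 10.08, 9.94, 9.47 and 10.36 at PN7d, and rose by 2.26 ± 0.15 (adjusted p = 1.05e-08). Ptgds, a synthase of prostaglandin D2, rose by 2.14 ± 0.11 (adjusted p = 4.96e-10), Nuak2, a kinase related to AMPK, rose by 1.81 ± 0.11 (adjusted p = 2.81e-09), and Enpp6, a choline phosphodiesterase, rose by 1.65 ± 0.1 (adjusted p = 4.85e-09). In each the 5 PN7d arrays lay above the 5 PN1d arrays. Tmem68 read 6.37, 6.27, 6.45, 6.51 and 6.42 at PN1d and 9.49, 9.37, 8.70, 9.54 and 9.41 at PN7d. Tor1aip2, an activator of torsin ATPases, fell by 2.18 ± 0.11 (adjusted p = 4.77e-10), and Tmem252 fell by 2.16 ± 0.16 (adjusted p = 3.46e-08).

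A range over 2 log2 among the 5 arrays of an age was found in 29 genes at PN1d and in 31 at PN7d, out of 9531.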
